A study of Mus musculus with 72 samples.

Results

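The red cell membrane and blood group genes described here are Ank1, Sptb, Slc4a1, Rhag, Rhd, Kel, Ermap and Icam4. They were chosen by name, each gene was represented by its brightest detected probe, and they are 8 of the 16098 genes that had a detected probe on the arrays. RNA was from the whole blood of male C57BL/6 mice, young adults when irradiated, with 1 mouse on each of 72 one-colour Agilent arrays. Blood was drawn by cardiac puncture at day 1, 3 or 7 after exposure, stabilised at collection, and its RNA was cleared of globin transcripts before labelling.

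Mice were sham-irradiated (controls), or received accelerator neutrons with a mixed energy spectrum at 0.25 Gy or at 1 Gy, or orthovoltage x-rays at 1 Gy or at 4 Gy. Controls numbered 5, 5 and 6 at days 1, 3 and 7. The 0.25 Gy neutron groups held 6, 6 and 5 mice at days 1, 3 and 7, and the 1 Gy x-ray groups held 6, 5 and 5. After 1 Gy of neutrons 6 mice were sampled at day 1 and 6 at day 7, and after 4 Gy of x-rays 5 and 6, with no day 3 group for either. A level below is the log2 signal of a probe minus the median log2 signal of the detected probes on the same array, so it is relative to the other transcripts of that sample. A gene was called in a comparison when limma gave an unadjusted p below 0.001 and a Benjamini-Hochberg adjusted p below 0.05 over the 10330 genes tested. Differences are given in log2 with their standard error (SE), and each p measures the spread between the mice of these groups. No x-ray group shared a scan date with the controls of its day. Scan date and exposure therefore cannot be told apart in those comparisons.

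The red cell membrane is a lipid bilayer laced to a skeleton of spectrin and actin. Ankyrin ties beta spectrin to band 3, the anion exchanger, and the Rh proteins sit in the same complex. Most of these proteins are made while the red cell precursor still has a nucleus, and the reticulocyte, the youngest red cell in blood, carries the last of their mRNA before it is lost with maturation. A level in whole blood therefore depends on how many young red cells the sample holds and on how much of the transcript each carries, and fewer cells of a type cannot be told apart from less RNA per cell in these data. Ank1 encodes ankyrin, Sptb the beta chain of spectrin and Slc4a1 band 3. Rhag and Rhd encode the Rh-associated glycoprotein and the Rh protein, Icam4 the Landsteiner-Wiener antigen, an adhesion protein that belongs to the Rh complex, Kel the Kell antigen, a membrane peptidase, and Ermap the Scianna antigen, a butyrophilin-like protein.

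In the RefSeq annotation of GRCm38.p6 the genes lie on 7 chromosomes. Ank1 is at chr8:22974836-23150501, Sptb at chr12:76580488-76710547, Slc4a1 at chr11:102348820-102365281 and Rhag at chr17:40811099-40844094. Rhd is at chr4:134864536-134896172, Ermap at chr4:119175457-119190013, Kel at chr6:41686329-41704334 and Icam4 at chr9:21029432-21030596. RefSeq's promoter table for this build had an entry for 6 of the 8 genes, and Ank1 and Slc4a1 are named only. The 100 bases before the start of 5 of them are printed below, 5′ to 3′ on the gene's strand, because their promoters share a short motif that the choice of the genes did not use. Capitals mark matches to the core motif of GATA1, the master transcription factor of red cell precursors, searched on both strands as GATA with A or T before it and A or G after it.
Rhag, chr17:40811049-40811148, plus strand: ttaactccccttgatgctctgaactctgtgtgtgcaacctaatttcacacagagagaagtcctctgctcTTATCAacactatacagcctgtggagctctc
Rhd, chr4:134864436-134864535, plus strand: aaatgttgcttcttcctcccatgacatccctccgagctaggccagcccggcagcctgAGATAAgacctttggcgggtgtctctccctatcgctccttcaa
Kel, chr6:41704326-41704425, minus strand: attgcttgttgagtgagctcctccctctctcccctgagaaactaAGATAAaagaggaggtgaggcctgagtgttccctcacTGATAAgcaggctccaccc
Ermap, chr4:119189996-119190095, minus strand: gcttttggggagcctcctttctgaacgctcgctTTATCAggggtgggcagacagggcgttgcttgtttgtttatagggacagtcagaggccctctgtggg
Icam4, chr9:21029332-21029431, plus strand: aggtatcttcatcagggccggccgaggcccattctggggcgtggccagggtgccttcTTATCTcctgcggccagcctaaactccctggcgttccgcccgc
The match began 31 bases before the start in Rhag, 43 in Rhd and Icam4 and 67 in Ermap, and Kel held matches at 56 and 19. Over the full window of 250 bases before and 50 after the start, 6 of the 6 promoters held a match, against 29.8% of 32851 promoters of the same length. In Sptb the match lay 12 bases after the start. A second motif, CCNCNCCC on either strand, which erythroid Kruppel-like factors can bind, was in 3 of the 6, against 49.5% of all promoters. A match is a description of the letters and not a binding site.

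Of the 1-spot probes for the genes, those of Slc4a1, Rhd, Kel, Icam4 and Ermap were well above background on 72 of 72 arrays, that of Rhag on 70 and that of Ank1 on 69. Sptb was dimmer, with 56 of 72. No spot was saturated. The brightest Ermap probe moved by 1.5-fold from its median on 19.6% of the day 1 and day 7 arrays, short of the 20% required, so Ermap was left out of the tested genes and 7 members were tested. Between 40.2% and 67.3% of the spots of an array were well above background, and the 1 Gy neutron arrays of day 7 were at the low end, from 40.2% to 50.3%. As a check of the tissue, 23 of 23 listed erythroid genes, 11 of 12 B cell genes, 12 of 12 T cell genes and 12 of 12 platelet genes had a detected probe. A list of 19 hepatocyte genes was also measured, because its level varied widely between samples, and that level, as a mean log2 level, is given beside the results it moves with. Of the 19 genes 10 had a detected probe, and the others were each well above background on 42 to 55 of the 72 arrays. A low hepatocyte level therefore rests partly on dim spots.

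Across the 13 groups, Ank1, Slc4a1, Rhag, Rhd, Kel and Icam4 took nearly the same order. In each of these 6 genes the 4 Gy x-ray group of day 1 had the lowest mean, the 1 Gy x-ray and 1 Gy neutron groups of day 1 were next, and at day 7 the mice given neutrons at 1 Gy, x-rays at 4 Gy and then x-rays at 1 Gy were the highest, in that order. The mean level of Ank1 ran from -5.28 ± 1.53 (SD, n = 5) after 4 Gy of x-rays at day 1 to 3.25 ± 0.60 (SD, n = 6) after 1 Gy of neutrons at day 7. That of Icam4 ran from -3.64 ± 0.34 to 0.93 ± 0.70 over the same groups. Controls and 0.25 Gy groups filled the middle of the order, and neighbours there mostly overlapped. Sptb and the brightest Ermap probe did not share this order. The other detected Ermap probes, which are dimmer, did. Their means were -4.91 (A_51_P391716) and -4.92 (A_55_P2153382) after 4 Gy of x-rays at day 1. After 1 Gy of neutrons at day 7 they were -0.08 and -0.66.

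**Figure D1:**
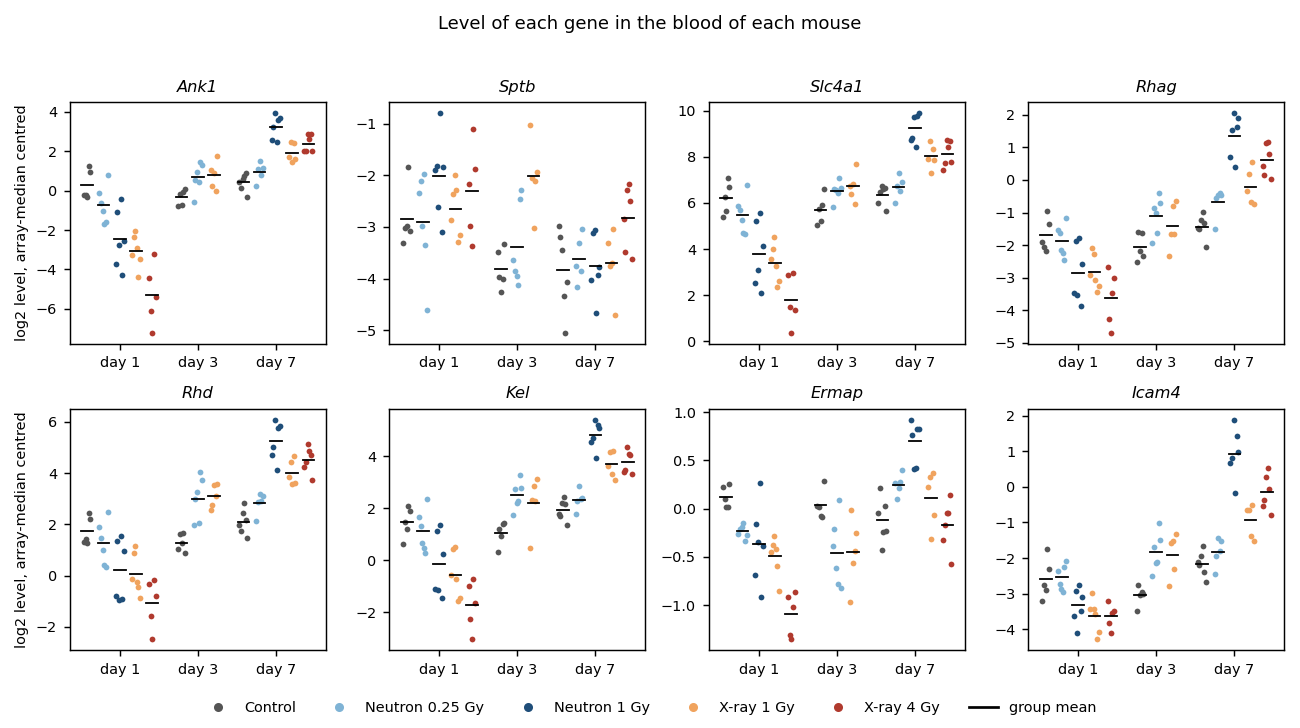
Level of each of the 8 genes in each mouse, as log2 signal minus the median of the detected probes of the array, by day on the horizontal axis and coloured by exposure. Each point is 1 mouse and each line a group mean, and the vertical scale differs between genes. In 6 genes the 4 Gy x-ray mice of day 1 lie lowest and the 1 Gy neutron mice of day 7 highest. Sptb and the brightest Ermap probe move over a narrower range.

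At day 1 the tested members other than Sptb had lower means in the mice given 1 Gy or more, and most so after 4 Gy of x-rays. Ank1, Slc4a1, Kel, Rhd and Rhag fell after this dose, 5 of the 7 tested members, where 18.4% of all tested genes were called lower. The level of Ank1 in the 5 controls was -0.21, -0.21, -0.32, 1.28 and 0.97. In the 5 mice given 4 Gy it was -4.43, -6.11, -7.22, -3.23 and -5.42, and the signal was well above background in 2 of the 5. The groups did not overlap, and the difference as measured was -5.58 (SE 0.64, adjusted p = 4.14e-05), whose exact size is uncertain because 3 of the 5 spots were not well above background. Slc4a1, which stayed well above background in each mouse, was 5.37, 6.24, 5.67, 7.08 and 6.71 in controls and 2.87, 1.499, 0.37, 2.96 and 1.38 after 4 Gy. The difference in Slc4a1 was -4.40 (SE 0.50, adjusted p = 3.85e-05), or 21.0-fold, again with no overlap.

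Of the blood group genes at day 1, Kel was 0.61, 1.47, 1.21, 2.07 and 1.91 in controls and -1.01, -2.25, -3.05, -0.72 and -1.67 after 4 Gy of x-rays. Every irradiated mouse was below every control, by 9.13-fold in the mean (difference -3.19, SE 0.43, adjusted p = 0.000115). Rhd, at 1.26 to 2.44 in controls, was -0.31, -1.56, -2.49, -0.18 and -0.80 after 4 Gy, 6.94-fold lower (difference -2.80, SE 0.43, adjusted p = 0.000244). Rhag, its partner in the Rh complex, fell by 1.93 (SE 0.39, adjusted p = 0.00127), with 3 of the 5 irradiated mice well above background. Icam4 differed by -1.05 (SE 0.29, adjusted p = 0.00782) and was not called, and Sptb by 0.54 (SE 0.42, adjusted p = 0.275). The 2 skeleton genes with probes in the test thus stood at opposite ends of the list. None of the 4 Gy mice was scanned on the controls' date, so scan date and exposure cannot be told apart here. Under normexp background correction 3 of the 5 calls were left, those of Slc4a1, Kel and Rhd, and Ank1 differed by -1.70 and Rhag by -0.10. The call of Rhag was also lost without control replicate 4 or 5 or x-ray replicate 2, at differences of -1.74, -1.85 and -1.77.

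Ank1, Slc4a1, Kel and Rhd fell at day 1 after 1 Gy of x-rays, 4 of the 7, beside 4.52% of all tested genes called lower. Ank1 ranged from -4.37 to -2.07 with a median of -3.09, and differed from controls by -3.37 (SE 0.43, adjusted p = 0.00138), 10.4-fold. Slc4a1 ranged from 2.38 to 4.51 with a median of 3.42, a difference of -2.82 (SE 0.41, adjusted p = 0.00212). In both, 6 of 6 irradiated mice were below every control. Kel and Rhd differed by -2.02 (adjusted p = 0.00767) and -1.67 (adjusted p = 0.0113), also in 6 of 6 mice. Rhag at -1.15 (adjusted p = 0.0205) and Icam4 at -1.04 (adjusted p = 0.0277) had 5 of 6 mice below the controls and were not called, and Sptb differed by 0.18 (adjusted p = 0.687). With scan date as a random block no call was left, although Ank1 still differed by -3.26 (adjusted p = 0.0705), and normexp left none. No irradiated mouse shared the controls' scan date, so that block cannot separate date from exposure. The call of Rhd was lost without any of control replicates 1, 2, 4 and 5 or x-ray replicates 1, 4, 5 and 6, at differences of -1.78 to -1.49, and that of Kel without control replicate 4 or 5, at -1.87 and -1.91.

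The mice given 1 Gy of neutrons were uneven at day 1, and 1 of the 7 members, Ank1, was called lower, against 10.4% of all tested genes. Ank1 was -3.75, -1.07, -2.76, -0.43, -4.30 and -2.57 in replicates 1 to 6, each below every control (difference -2.78, SE 0.65, adjusted p = 0.0056, 6.88-fold). Slc4a1 was 2.55, 5.21, 3.10, 5.56, 2.09 and 4.12, a difference of -2.44 (adjusted p = 0.00806) that missed the unadjusted threshold. Replicates 2 and 4 were the highest of the group in each of the 6 genes, whereas replicates 1, 3 and 5 were low in each. Kel at -1.62 (adjusted p = 0.0264), Rhd at -1.53 (adjusted p = 0.0297) and Rhag at -1.15 (adjusted p = 0.0367) had 4 of 6 mice below the controls. The mean of Icam4 was -3.33 against -2.59 in controls, and that of Sptb was higher, at -2.01 against -2.84. Neither was called. The 4 neutron mice scanned on the controls' date gave -2.30 for Ank1 (adjusted p = 0.0246), not called. The call was also lost without any of control replicates 1 to 5 or neutron replicates 1, 3, 5 and 6, at differences of -2.94 to -2.42, and 2 members were called without neutron replicate 2 or 4.

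After 0.25 Gy of neutrons 0 of the 7 members were called at day 1, and 0.00968% of all tested genes were. At an unadjusted p below 0.05 the count of members was also 0. Ank1 ranged from -1.67 to 0.80, with 4 of 6 mice below every control and a difference of -1.01 (SE 0.47, adjusted p = 0.302). Icam4 differed by 0.05 (adjusted p = 0.923). The brightest Ermap probe, which was outside the tested genes, ranged from -0.34 to -0.14 against 0.02 to 0.26 in controls, without overlap, and differed by -0.36 (SE 0.12, adjusted p = 0.221 without the 1.5-fold requirement).

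**Figure D2:**
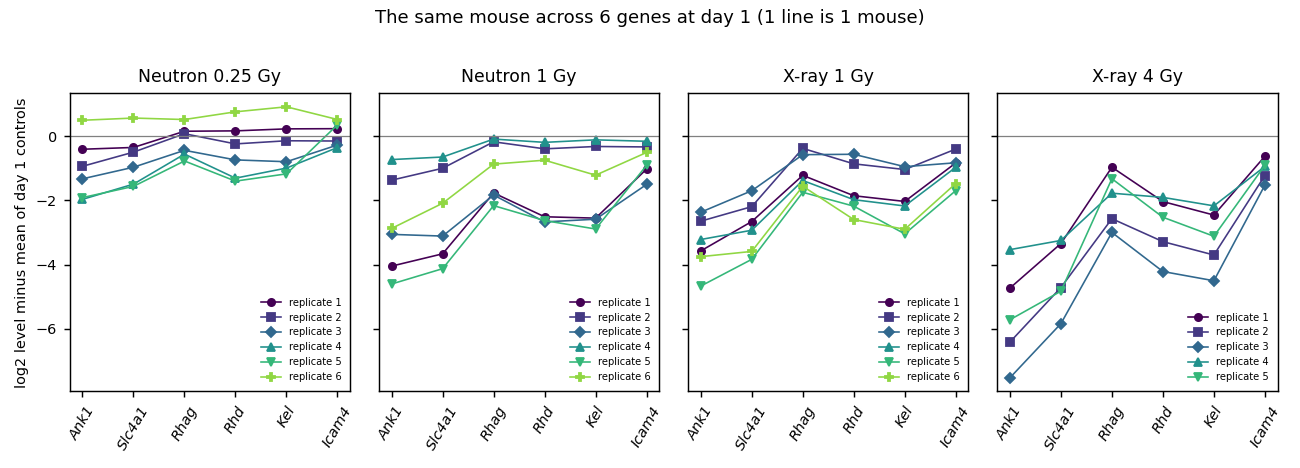
Level of 6 genes in each irradiated mouse at day 1 minus the mean of the day 1 controls, in log2, with 1 panel per exposure and 1 line per mouse. Lines run nearly parallel within a panel. In the 1 Gy neutron panel replicates 2 and 4 lie highest and replicates 1, 3 and 5 lie lowest, and in the 4 Gy x-ray panel each mouse is below 0 for each gene.

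Hepatocyte genes varied between the same mice. Their mean log2 level over 19 genes ranged from -0.77 to 6.31 (median 3.94) in the day 1 controls and from 7.19 to 8.26 in the 4 Gy x-ray mice, with no overlap. In 1 Gy neutron replicates 1 to 6 it was 7.53, 6.20, 7.07, -0.60, 7.39 and 6.31, so replicate 4, which held the highest level of the membrane genes, had the lowest hepatocyte level. In a fit chosen after seeing the data, with this level as a covariate, Ank1 (-5.50), Slc4a1 (-4.18) and Kel (-2.95) kept their calls after 4 Gy of x-rays. Since the level did not overlap between those groups, that fit cannot separate it from exposure. In the same fit Ank1 (-3.20) and Slc4a1 (-2.59) kept theirs after 1 Gy of x-rays, and no member was called after 1 Gy of neutrons. B cell genes moved too. All 11 tested were called lower at day 1 after 1 Gy of neutrons and after 4 Gy of x-rays, and 7 of the 11 after 1 Gy of x-rays. Of all tested genes 10.4%, 18.4% and 4.52% were called lower in these comparisons. The part of these other cell types in the membrane gene differences was not tested beyond the covariate fit at 1 Gy.

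At day 3 the 7 tested members lay above the controls, whereas the brightest Ermap probe lay below them, by -0.49 after 0.25 Gy of neutrons and -0.48 after 1 Gy of x-rays. The day 3 controls had the lowest control means in Ank1, Slc4a1, Rhag, Rhd, Kel and Icam4. In controls of days 1, 3 and 7 Slc4a1 averaged 6.21, 5.70 and 6.36, and Rhd 1.73, 1.29 and 2.11. After neutrons and x-rays at day 3 Slc4a1 averaged 6.53 and 6.72, and Rhd 3.00 and 3.11. The part of the low controls in the day 3 differences was not tested. After 0.25 Gy of neutrons Rhd, Kel and Icam4 rose, 3 of the 7, beside 0.649% of all tested genes called higher. Rhd was 1.02, 1.63, 1.25, 1.66 and 0.87 in controls and ranged from 1.96 to 4.03 (median 3.11) in the irradiated mice, 3.27-fold higher (difference 1.71, SE 0.37, adjusted p = 0.0478). Kel ranged from 1.72 to 3.29 against 0.33 to 1.44 in controls (difference 1.44, SE 0.30), and Icam4 from -2.50 to -1.03 against -3.48 to -2.76 (difference 1.22, SE 0.26), each with an adjusted p of 0.0478. In these genes 6 of 6 irradiated mice were above every control. Ank1 at 1.02, Rhag at 0.95 and Slc4a1 at 0.83 were on the same side and not called, with adjusted p of 0.101, 0.0896 and 0.114, and Sptb was at 0.43.

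Rhd and Sptb rose at day 3 after 1 Gy of x-rays, 2 of the 7, beside 1.64% of all tested genes called higher. Rhd was 2.57, 2.75, 3.55, 3.12 and 3.56, each above every control (difference 1.82, SE 0.27, adjusted p = 0.0299, 3.54-fold). Sptb was -1.01, -2.04, -3.02, -2.10 and -1.93, against -3.49, -3.98, -4.26, -4.02 and -3.34 in controls, where 2 of 5 spots were well above background (difference 1.80, SE 0.35, adjusted p = 0.0397). This was the comparison with controls in which Sptb moved past the threshold. Ank1, Slc4a1, Kel, Icam4 and Rhag differed by 1.13, 1.02, 1.14, 1.15 and 0.63 and were not called.

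The day 3 calls were fragile. All 3 calls after 0.25 Gy were lost without any of control replicates 1, 3, 4 and 5 or irradiated replicates 3, 4, 5 and 6, and Kel was the 1 call left without irradiated replicate 2. Both calls after 1 Gy of x-rays were lost without any of control replicates 2 to 5 or x-ray replicates 2 and 4, and that of Sptb also without x-ray replicate 5, at 1.77. With scan date as a block 0 members were called after 0.25 Gy and 4 after 1 Gy of x-rays, and under normexp Sptb differed by 0.33. After 1 Gy of x-rays no mouse shared the controls' scan date, so that block cannot separate date from exposure. The hepatocyte level ranged from -3.31 to 5.71 in the day 3 controls, from 3.90 to 7.46 after 0.25 Gy and from 0.15 to 5.36 after 1 Gy of x-rays. B cell genes were lower in 6 of 11 after 0.25 Gy of neutrons and in 1 of 11 after 1 Gy of x-rays, with a mean level of 1.11 to 2.19 and 1.06 to 2.24 against 2.65 to 2.87 in controls. Platelet genes were higher in 0 and 4 of 12, with a mean level of 4.18 to 5.66 and 4.98 to 6.39 against 4.43 to 4.85. These are counts of calls. Of the 10330 tested genes, 86 were called lower and 67 higher after 0.25 Gy, and 43 lower and 169 higher after 1 Gy of x-rays. The part of B cells and platelets in the day 3 differences was not tested. With the hepatocyte level as a covariate no member was called at day 3, with each difference in the same direction.

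**Figure D3:**
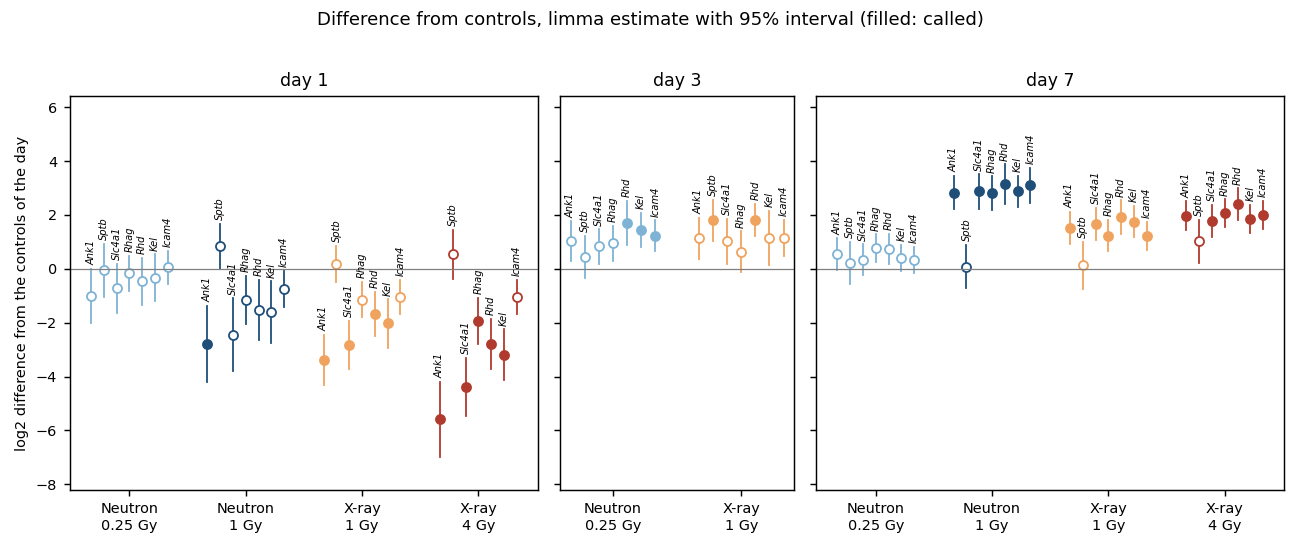
Difference of each of the 7 tested members from the controls of the same day, in log2, by exposure, with 1 panel per day. Points are limma estimates, lines 95% intervals, and filled points passed the call rule. From 1 Gy up the members lie below 0 at day 1 and above it at day 7, furthest after 1 Gy of neutrons, and they lie above 0 at day 3, except Sptb, which stays near or above 0 at day 1 and near 0 after 1 Gy at day 7.

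At day 7 membrane genes were called higher than the controls at each dose but the lowest. After 1 Gy of neutrons Ank1, Slc4a1, Rhag, Rhd, Kel and Icam4 rose, 6 of the 7, where 25.3% of all tested genes were called higher. Rhd ranged from 4.14 to 6.08 (median 5.39) against 1.47 to 2.84 (median 2.07) in controls, 8.85-fold higher (difference 3.15, SE 0.34, adjusted p = 5.93e-06). Icam4 ranged from -0.18 to 1.89 (median 0.89) against -2.67 to -1.66 (median -2.15), 8.54-fold higher (difference 3.09, SE 0.30, adjusted p = 2.78e-06). Kel ranged from 3.92 to 5.40 (median 4.89) against 1.34 to 2.41 (median 1.97), with a difference of 2.88 (SE 0.27, adjusted p = 1.8e-06). In all 6 genes 6 of 6 irradiated mice lay above every control. Slc4a1 (2.87), Ank1 (2.83) and Rhag (2.80) differed by nearly the same amount, with adjusted p from 3.8e-06 to 4.31e-06. Rhag ranged from 0.39 to 2.05 against -2.04 to -0.995 in controls, Ank1 from 2.49 to 3.93 against -0.31 to 0.92, and Slc4a1 from 8.42 to 9.88 against 5.67 to 6.72.

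Sptb differed from the other members here. After 1 Gy of neutrons its spot was well above background in 0 of 6 mice, against 5 of 6 controls, so it has only an upper bound in that group (difference as measured 0.08, SE 0.37, adjusted p = 0.872). These levels are relative to the array median, and centring on the spike-in controls instead lowered the median difference over all genes by 1.93 in this comparison. On that scale the 6 genes were 0.86 to 1.21 above controls, in the same direction and not called. With scan date as a block Icam4 differed by 2.83, Kel by 2.61 and Slc4a1 by 2.39. Rhd then differed by 2.58, Ank1 by 2.17 and Rhag by 2.14. These values rest on the 1 neutron mouse scanned on the controls' date. Under normexp the 6 differences were 1.21 to 1.57, with Icam4 and Rhag called.

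The same 6 genes rose at day 7 after 4 Gy of x-rays, beside 9.12% of all tested genes called higher. Rhd ranged from 3.74 to 5.12 (median 4.57), 5.32-fold above controls (difference 2.41, SE 0.27, adjusted p = 3.11e-05). Rhag ranged from 0.04 to 1.15 (median 0.62), 4.15-fold above (difference 2.05, SE 0.24, adjusted p = 4.32e-05). Icam4 differed by 2.01 (adjusted p = 5.68e-05), Ank1 by 1.98 (adjusted p = 6.93e-05), Kel by 1.85 (adjusted p = 8.2e-05) and Slc4a1 by 1.78 (adjusted p = 0.000301). Each of the 6 genes was above every control in 6 of 6 mice. Sptb differed by 1.03 (SE 0.37, adjusted p = 0.0425), with 4 of 6 mice above every control, and was not called. All mice of this group were scanned on 1 date and the controls on another, so scan date and exposure cannot be told apart. Under normexp 3 of the 6 were called, Ank1 (1.52), Kel (1.59) and Rhd (2.14).

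At 1 Gy of x-rays 6 of the 7 members rose at day 7, again the same genes, beside 3.3% of all tested genes called higher. Rhd was 3.84, 4.42, 3.59, 4.67 and 3.59, a difference of 1.91 (SE 0.28, adjusted p = 0.00317, 3.77-fold). Kel was 3.62, 4.18, 3.31, 4.22 and 3.08, a difference of 1.75 (SE 0.26, adjusted p = 0.00317, 3.37-fold). Slc4a1 differed by 1.66 (adjusted p = 0.00537), Ank1 by 1.52 (adjusted p = 0.00806), Rhag by 1.23 (adjusted p = 0.0189) and Icam4 by 1.22 (adjusted p = 0.0129). Each of the 6 was above every control in 5 of 5 mice, and Sptb differed by 0.14 (adjusted p = 0.866). The call of Rhag was lost without any of control replicates 1, 2, 3, 5 and 6 or x-ray replicates 1, 2 and 4, at differences of 1.05 to 1.27, and that of Icam4 without x-ray replicate 1, 2 or 4, at 1.12 to 1.15. Spike-in centring left differences of 0.35 to 1.05 with none called, and normexp left 3 calls, of Ank1, Kel and Rhd. No mouse of this group was scanned on the controls' date, so scan date and exposure cannot be told apart.

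After 0.25 Gy of neutrons 0 members were called at day 7, where 0.029% of all tested genes were. At an unadjusted p below 0.05, 2 members passed. Rhag, at -1.51, -0.56, -0.45, -0.40 and -0.45, differed by 0.76 (adjusted p = 0.0995), and Rhd, at 2.15, 2.88, 3.17, 2.90 and 3.11, by 0.73 (adjusted p = 0.126). The 7 tested members lay between 0.22 and 0.76 above the controls. With spike-in centring the differences of all 6 genes turned negative, between -0.70 and -0.27, as the median over all genes fell by 1.03.

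Markers of other cells at day 7 are given beside these rises. Among listed erythroid genes 20 of 23 were called higher after 1 Gy of neutrons, and 10 of 11 B cell genes were called lower. Neutrophil genes were higher in 4 of 9, with a mean level of 2.67 to 3.63 against 1.46 to 2.29 in controls. After 4 Gy of x-rays 6 of 23 erythroid genes were called higher and 11 of 11 B cell genes lower, and after 1 Gy of x-rays 9 of 23 and 3 of 11. Of the 10330 tested genes, 2615 were called higher and 1387 lower after 1 Gy of neutrons. The counts were 942 and 892 after 4 Gy of x-rays, and 341 and 75 after 1 Gy of x-rays. The hepatocyte level was -3.70 to -1.96 in the day 7 controls, -2.26 to 2.78 after 1 Gy of neutrons, -3.10 to 4.47 after 1 Gy and -3.95 to 6.72 after 4 Gy of x-rays. The part of a change in other cells in the centred levels was not tested.

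The turn from lower at day 1 to higher at day 7 was tested as a shift, the difference from controls at day 7 less that at day 1. It passed after 4 Gy of x-rays in 6 of the 7 members, where 12.2% of all tested genes were called higher by this test. Slc4a1 shifted by 6.18, Rhd by 5.21, Kel by 5.04 and Icam4 by 3.05. Ank1 and Rhag shifted by 7.56 and 3.98 as measured, values that rest on day 1 groups with 2 and 3 of 5 spots well above background. All 6 had adjusted p of at most 4.43e-06. The same 6 passed after 1 Gy of neutrons, beside 21.5% of all tested genes, with shifts from 3.84 in Icam4 to 5.61 in Ank1. They also passed after 1 Gy of x-rays, beside 6.78%, from 2.26 in Icam4 to 4.89 in Ank1. The ordering of the members differed between days, since Ank1 and Slc4a1 fell the most at day 1 and Rhd rose by at least as much as they did at day 7. Sptb shifted by -0.75, -0.04 and 0.49 after 1 Gy of neutrons, 1 Gy of x-rays and 4 Gy of x-rays, and was not called. After 0.25 Gy of neutrons 0 members passed, beside 0.91% of all tested genes, with 3 at an unadjusted p below 0.05, and Ank1 shifted by 1.56 (adjusted p = 0.177).

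Where day 3 was measured, most of the shift after 1 Gy of x-rays lay between day 1 and day 3. In that interval 5 of the 7 members passed, beside 2.37% of all tested genes called higher. Ank1 shifted by 4.501 (adjusted p = 0.000331), Slc4a1 by 3.84 (adjusted p = 0.00097), Rhd by 3.50 (adjusted p = 0.000497), Kel by 3.17 (adjusted p = 0.00725) and Icam4 by 2.18 (adjusted p = 0.00551). Rhag at 1.78 (adjusted p = 0.0421) and Sptb at 1.62 (adjusted p = 0.0779) were not called. From day 3 to day 7 the 6 genes shifted by 0.07 to 0.64 and Sptb by -1.66 (adjusted p = 0.0846), with 0 called by limma beside 2.4% of all tested genes and 1 at an unadjusted p below 0.05. After 0.25 Gy of neutrons 0 members passed from day 1 to day 3, beside 0% of all tested genes, and 0 from day 3 to day 7, beside 2.11%. At an unadjusted p below 0.05 the counts of members were 6 and 2. The largest of these were Rhd at 2.17 (adjusted p = 0.373) and Kel at -1.04 (adjusted p = 0.109). These comparisons share the control groups, among them the low day 3 controls, and the irradiated groups with those above.

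Neutrons and x-rays were compared directly at the same stated dose of 1 Gy. The study describes gamma rays in the neutron beam and a higher dose rate for x-rays, so the exposures differed in these too. At day 7 Rhag and Icam4 were higher after neutrons, 2 of the 7, beside 17.6% of all tested genes called higher. Icam4 differed by 1.87 (SE 0.34, adjusted p = 0.00132), with a range of -0.18 to 1.89 after neutrons against -0.64, -0.65, -1.38, -0.52 and -1.51 after x-rays, with no overlap. Rhag differed by 1.56 (SE 0.34, adjusted p = 0.00306), with 0.39 to 2.05 against -0.34, 0.20, -0.67, 0.54 and -0.73, so its groups overlapped. Ank1 differed by 1.32 (95% interval 0.64 to 1.99, adjusted p = 0.00452), Rhd by 1.23 (adjusted p = 0.0133), Slc4a1 by 1.21 (adjusted p = 0.0091) and Kel by 1.12 (adjusted p = 0.00846), and none of these passed. With scan date as a block neither Rhag nor Icam4 was called, and with spike-in centring 0 members were. The call of Rhag was lost without any of neutron replicates 2, 3, 5 and 6 or x-ray replicates 1, 3 and 5, at 1.43 to 1.53.

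At day 1 the difference between 1 Gy of neutrons and 1 Gy of x-rays was called in 0 of the 7 members, where 9.08% of all tested genes were called, and 0 had an unadjusted p below 0.05. The interval for Ank1 was -0.76 to 1.94 around 0.59 (adjusted p = 0.534), which leaves room for a difference in either direction. Neutrons at 1 Gy and x-rays at 4 Gy differ in dose and are placed side by side by time. At day 1 0 members passed between them, beside 0.0581% of all tested genes and with 3 at an unadjusted p below 0.05, Ank1 being 2.80 higher after neutrons (95% interval 1.07 to 4.53, adjusted p = 0.169). At day 7 0 passed, beside 42.5%, although 7 had an unadjusted p below 0.05, and Kel differed by 1.02 (adjusted p = 0.00442), Slc4a1 by 1.09 (adjusted p = 0.00757) and Icam4 by 1.09 (adjusted p = 0.00898). The day 7 differences of Ank1, Kel, Rhag and Rhd turned and were called under spike-in centring, between -1.41 and -1.12, a scale on which the median over all genes fell by 2.14.

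Fewer members were called between the controls of different days. Between day 1 and day 3 0 members were called, beside 0% of all tested genes, and between day 1 and day 7 0 were, beside 5%. In each, 1 member had an unadjusted p below 0.05. From day 3 to day 7 Icam4 rose, 1 of the 7, beside 0.862% of all tested genes called higher. It was -3.48, -2.76, -3.05, -2.95 and -3.02 at day 3 and -2.67 to -1.66 at day 7 (difference 0.89, SE 0.20, adjusted p = 0.0429, 1.85-fold), and 6 of 6 mice of day 7 were above every mouse of day 3. In this comparison 6 of the 7 members had an unadjusted p below 0.05, with a median difference of 0.76. The call was lost without any control mouse but replicate 6 of day 7, at 0.78 to 0.96, and with spike-in centring the difference was -0.88. Scan date and day cannot be told apart in these comparisons.

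Ermap has 3 detected probes, and they disagreed in size and, at day 3, in direction. The brightest, at chr4:118849093-118849152 on mm9, gave a narrow range. In the 4 Gy x-ray mice of day 1 it was -0.91, -1.30, -1.35, -1.02 and -0.87 against 0.02 to 0.26 in controls, a difference of -1.21 (SE 0.16). Tested without the requirement of a 1.5-fold spread, it was called there (adjusted p = 0.000128), after 1 Gy of x-rays at day 1 (-0.62, adjusted p = 0.00869) and after 1 Gy of neutrons at day 7 (0.81, adjusted p = 0.000411). All irradiated mice of those groups lay beyond every control. At day 1 the other probes were lower too. After 4 Gy of x-rays A_51_P391716 differed by -1.88 and A_55_P2153382 by -1.94, each well above background in 2 of 5 mice and not called. After 1 Gy of x-rays they differed by -1.41 (adjusted p = 0.00618, called) and -0.89 (not called). After 1 Gy of neutrons they differed by -0.80 and -0.95, not called. At day 7 the brightest probe differed after 4 Gy of x-rays by -0.05 (adjusted p = 0.81). The other probes rose there, by 2.28 (A_51_P391716, adjusted p = 3.22e-05) and 1.26 (A_55_P2153382, adjusted p = 0.00331). At day 7 they rose after 1 Gy of neutrons by 2.78 (adjusted p = 1.38e-06) and 2.75 (adjusted p = 1.31e-06), and after 1 Gy of x-rays by 1.24 (adjusted p = 0.0103) and 1.20 (adjusted p = 0.0137). At day 3 no probe was called. There the brightest differed by -0.49 after 0.25 Gy of neutrons and -0.48 after 1 Gy of x-rays, A_51_P391716 by 0.95 and 1.07, and A_55_P2153382 by 0.46 and 0.38.

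**Figure D4:**
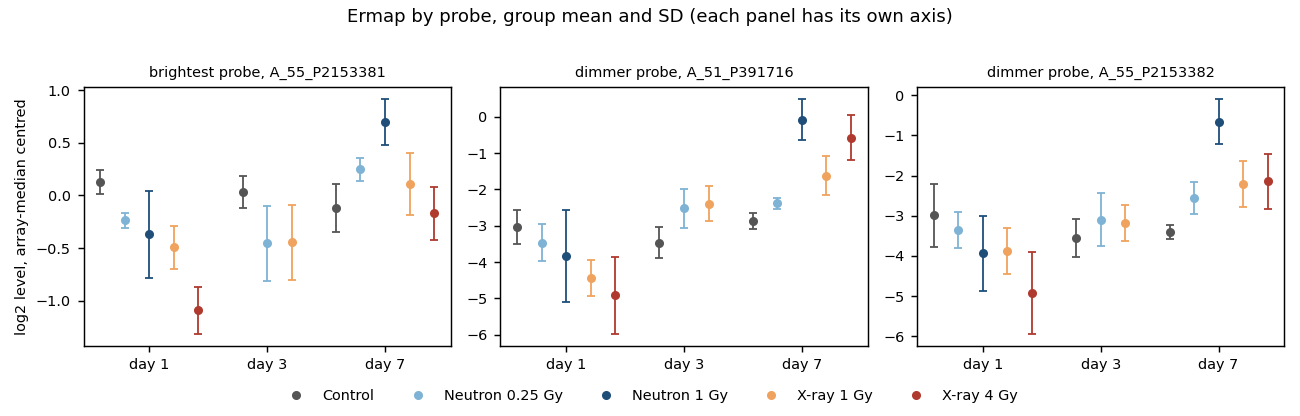
Level of the 3 detected Ermap probes by group, as the mean of log2 signal minus the array median, with bars of 1 SD over 5 or 6 mice, 1 panel per probe and days on the horizontal axis. The brightest probe stays between -1.09 and 0.70 in its group means. The other probes rise to -0.08 and -0.66 after 1 Gy of neutrons at day 7, from -2.86 and -3.41 in the controls.

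Within groups, the 6 genes moved together from mouse to mouse. Over the 72 arrays, after each group's mean was removed, Pearson's r between pairs of the 6 was 0.647 to 0.937, with a median of 0.851 over 15 pairs. Sptb correlated with the 6 at 0.339 to 0.440 and the brightest Ermap probe at 0.419 to 0.549. With group means kept, r with the mean of the other members was 0.914 to 0.965 for the 6, 0.678 for Ermap and -0.288 for Sptb. Arrays of 1 group share exposure and day, so these are descriptions over 72 arrays without a test. The genes whose level over the 72 arrays was most like the mean of the members were Tmcc2 (r = 0.980), Hipk1 (0.975), Apol11b (0.970), Cldn13 (0.969), Lockd (0.965), Fhdc1 (0.965), Trim10 (0.965), Ccna2 (0.964), Tmod1 (0.962) and Mpp1 (0.962). Tmod1 caps the actin filaments of the membrane skeleton and Mpp1 is a membrane scaffold protein, and both were in the list of other membrane genes described next.

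Of 30 further genes of the red cell membrane, 27 were tested. At day 7 after 1 Gy of neutrons, 16 of the 27 were called higher and 1 lower, against 2615 and 1387 of all tested genes. The median difference over the 27 was 1.74, against a median of 2.87 over the 7 members and 0.31 over all tested genes. Tmod1 rose by 2.88 (adjusted p = 1.11e-05) and Ackr1, the Duffy antigen, by 2.85 (adjusted p = 1.43e-06). At day 7 after 1 Gy of x-rays, 9 of the 27 were called higher and 0 lower, against 341 and 75 (median 0.67, members 1.52, all genes 0.04). After 4 Gy of x-rays at day 7, 5 were called higher and 1 lower, against 942 and 892 (median 0.69, members 1.98, all genes -0.05). The gene called lower was Cd55, a complement regulator that leukocytes also carry, at -3.43 (adjusted p = 1.93e-08). Piezo1, a mechanosensitive channel, differed by -2.64 (adjusted p = 0.00836) and Slc16a1, a lactate transporter, by -2.34 (adjusted p = 0.104), and neither was called.

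In the 4 Gy x-ray mice of day 1, 11 of the 27 were called lower and 4 higher, where 1900 and 1747 of the 10330 genes tested were (median -0.27, members -2.80, all genes 0.03). Epb42, which binds band 3 and ankyrin, was lower by a log2 difference of -4.00 (adjusted p = 5.75e-05). The 1 Gy neutron mice had 5 called lower and 2 higher, against 1079 and 739 of all tested genes, and Cd55 was among the lower (-2.99, adjusted p = 4.16e-05). After 1 Gy of x-rays 5 were called lower and 1 higher, against 467 and 329. At day 3, 2 of the 27 were called higher after 0.25 Gy of neutrons and 4 after 1 Gy of x-rays, with 0 called lower. Of all tested genes, 67 and 169 were called higher and 86 and 43 lower. After 0.25 Gy of neutrons 0 were called at day 1 and at day 7.

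**Figure D5:**
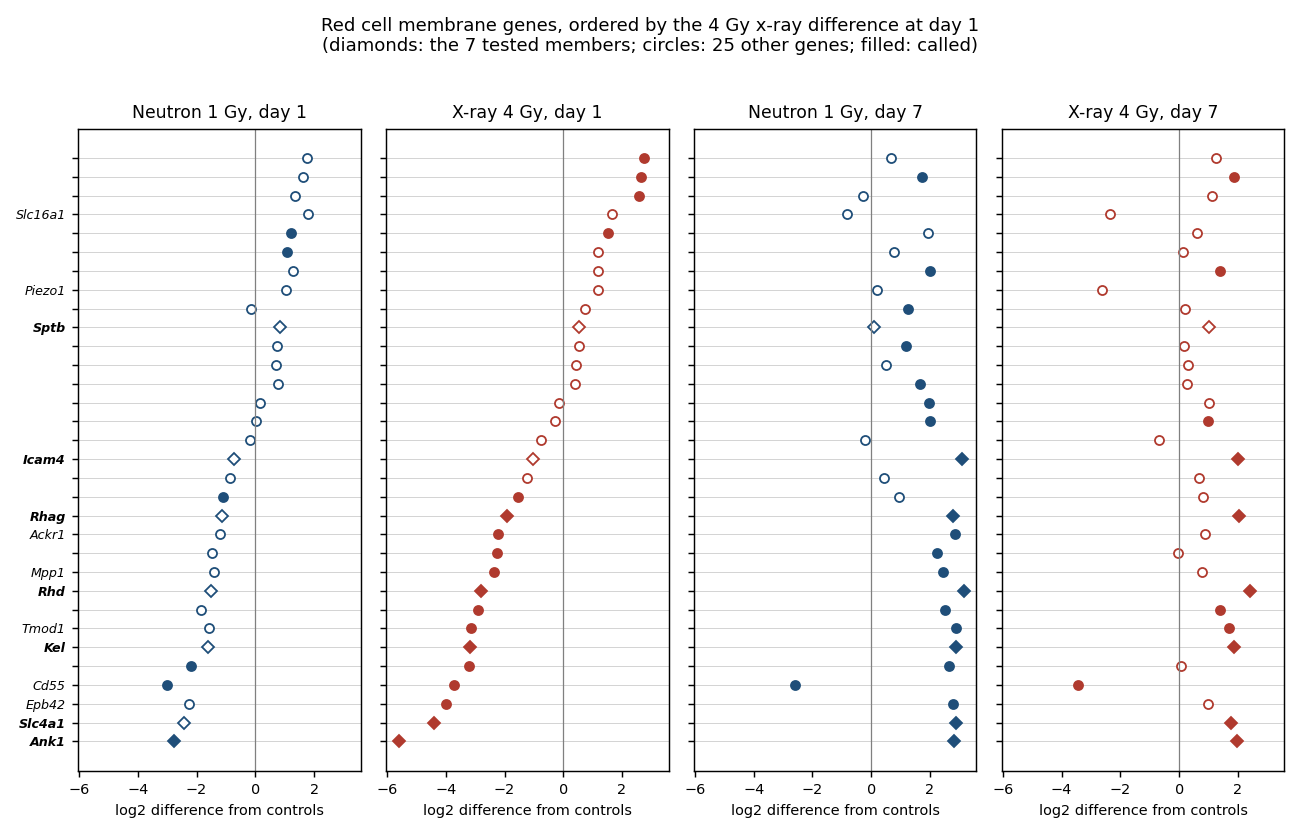
Difference from the controls of the day, in log2, for the 7 tested members (diamonds, bold names) and 25 other red cell membrane genes (circles, named where the text names them), in 4 comparisons, with genes ordered by the 4 Gy x-ray difference at day 1. Filled points passed the call rule. At day 1 the list spreads to both sides of 0 and at day 7 after 1 Gy of neutrons 20 of the 32 points are filled to the right of 0.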

How the data were processed

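Agilent Mouse 4x44K v2 arrays were hybridised with Cy3-labelled cRNA, and the deposited scanner files hold the signal intensity of each spot after the authors' background correction by Agilent Feature Extraction 12.0.2 (submitters' processing notes) at its default settings. A deposited log2 table of the whole series was also examined. Of its 72 columns, 12 followed the array of their own sample and 60 another array, so it served only as an alternative for 0.25 Gy of neutrons at day 1. Whether the table or the scanner files are out of order was not settled by this, and the scanner files, 72 of 72 of which carry the exposure and day of their label in their name, were used under their labels.

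Of 44397 spots, 1377 controls were left out. The log2 processed signal was centred on the median of the detected probes of each array. A probe was detected when flagged as non-uniform, as a population outlier or as not well above background on fewer than 25% of the 56 arrays of days 1 and 7, after the study's filter. Of 39429 probes, 28330 were named through their accession, with 1403 names changed, and 19808 were detected. The brightest detected probe stood for each of 16098 genes, and 10330 genes whose signal departed 1.5-fold from its median in 20% or more of those arrays were tested. Tests used limma 3.58.1 in R 4.3.3, 2-sided, with moderated variances over the samples of the comparison, and differences between days as interactions. Scripts were tested on simulated data.

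All 8 members are named, with the 10 genes most like their mean and the 3 largest changes of the membrane list after 4 Gy of x-rays or 1 Gy of neutrons at days 1 and 7, less 2 genes that are counted in the list but not reported here. The members, lists and tests were chosen with earlier results of these data known. Arrays were scanned on 7 dates and lay on 19 slides. Precision rests on 5 or 6 mice per group. Alternatives covered scaling, background correction, filters, scan date, replicate block, probe and leaving out each array. Slide as a block, the single scan date and the hepatocyte covariate were added after seeing the data.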

Additional observations from a re-analysis of the deposited data

Results flagged for a closer look

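In 3 of 104 groups of a gene's values 1 mouse lay far from the rest, where chance gives about 1 in 20 such groups. Sptb was -1.83 in control replicate 4 of day 1, against -3.30 to -2.98 in the other controls. Replicate 1 of the 0.25 Gy neutron group of day 7 was low both in Rhag, at -1.51 against -0.56 to -0.40 in the others, and in Rhd, at 2.15 against 2.88 to 3.17.

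The effect of exposure differed between days by a test of the difference itself. From day 1 to day 7 the effect of 1 Gy of neutrons shifted by 5.61 in Ank1, 5.32 in Slc4a1, 4.67 in Rhd, 4.49 in Kel, 3.95 in Rhag and 3.84 in Icam4. That of 1 Gy of x-rays shifted by 4.89 in Ank1, 4.48 in Slc4a1, 3.78 in Kel, 3.59 in Rhd, 2.38 in Rhag and 2.26 in Icam4. That of 4 Gy of x-rays shifted by 7.56 in Ank1, 6.18 in Slc4a1, 5.21 in Rhd, 5.04 in Kel, 3.98 in Rhag and 3.05 in Icam4. From day 1 to day 3 the effect of 1 Gy of x-rays shifted by 4.501 in Ank1, 3.84 in Slc4a1, 3.50 in Rhd, 3.17 in Kel and 2.18 in Icam4.

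Outside the probes used for the members, the dimmer Ermap probes rose at day 7. A_51_P391716 rose by 2.78 after 1 Gy of neutrons, 1.24 after 1 Gy of x-rays and 2.28 after 4 Gy. A_55_P2153382 rose by 2.75, 1.20 and 1.26 in the same comparisons.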

How the results depend on the processing

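Over the alternatives other than leaving out an array, 59 called differences of members gave 691 values, of which 575 kept direction and call, 115 kept direction alone and 1 changed sign (Icam4 in the controls, day 7 against day 3, -0.88 with spike-in centring). Without 1 array in turn, 819 of 908 values kept the call and 0 changed sign. The number of members called changed as follows, and the cause was not tested. With spike-in centring it was 2 after 1 Gy of neutrons at day 1, 1 and 0 at day 3 (0.25 Gy of neutrons, 1 Gy of x-rays), 1 and 0 at day 7 (1 Gy of neutrons, 1 Gy of x-rays), 2 for the 0.25 Gy neutron effect from day 3 to day 7, 1 for the 1 Gy x-ray effect from day 1 to day 3, 0 for 1 Gy of neutrons against 1 Gy and 6 against 4 Gy of x-rays at day 7, and 7 and 3 between controls (day 3 against day 1, day 7 against day 3). The 1 member called with spike-in centring after 1 Gy of neutrons at day 7 was none of the 6 genes that rose there. With normexp the number of members called was 0, 0 and 3 at day 1 (1 Gy of neutrons, x-rays at 1 Gy and at 4 Gy), 0 and 1 at day 3, 2, 3 and 3 at day 7, and 0 between controls of days 7 and 3. With dim spots missing it was 0 after 1 Gy of neutrons at day 1, 1 and 1 at day 3, 1 for neutrons against x-rays at 1 Gy at day 7 and 0 between controls. Without the 1.5-fold requirement it was 0 after 1 Gy of neutrons at day 1 and 1 each for the 0.25 Gy neutron effect from day 1 to day 7 and from day 3 to day 7 and for neutrons against 4 Gy of x-rays at day 7. Without the detection filter it was 0 after 1 Gy of neutrons at day 1, at day 3 and between controls. The 75th percentile gave 1 after 0.25 Gy at day 3, for its effect from day 3 to day 7 and for neutrons against 4 Gy at day 7, the A_55_P2153382 probe 1 for the last, and quantile normalization 0 between controls. Scan date as a block gave 0 and 0 at day 1 after 1 Gy of neutrons and of x-rays and 0 and 4 at day 3. It gave 1 for the 1 Gy x-ray effect from day 3 to day 7 and 0 for neutrons against x-rays at 1 Gy at day 7. For x-rays against controls this block cannot separate date from exposure. No count is given after 1 Gy of neutrons at day 7, where 1 neutron mouse shared the controls' date. Slide as a block gave 2 after 1 Gy of neutrons at day 1 and 0 after 0.25 Gy at day 3, and 1 scan date gave 0 after 1 Gy of neutrons. The hepatocyte covariate gave 0, 2 and 3 at day 1 and 0 and 0 at day 3.

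The replicate numbers only name samples, since same-numbered mice correlated from -0.559 to 0.652 and in no comparison were all pairs above 0.1. With a replicate block the members called were 0 after 1 Gy of neutrons and 2 after 1 Gy of x-rays at day 1, 0 after 0.25 Gy at day 3, 0 for neutrons against x-rays at 1 Gy at day 7 and 0 between controls.

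Leaving out each array in turn, members called were 0 to 2, 2 to 5 and 4 to 5 at day 1 (1 Gy of neutrons, x-rays at 1 Gy and at 4 Gy), 0 to 4 at day 3 after either exposure, and 0 to 1, 6 to 6, 4 to 6 and 6 to 6 at day 7 (0.25 Gy and 1 Gy of neutrons, x-rays at 1 Gy and at 4 Gy). They were 5 to 6 for the 1 Gy x-ray effect from day 1 to day 3, 1 to 5 and 0 to 2 for neutrons against x-rays at 1 Gy and at 4 Gy at day 7, and 0 to 1 between controls of days 7 and 3.

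Some differences that were not called changed sign. Sptb after 1 Gy of neutrons at day 7 was -0.19 with scan date as a block, -1.85 with spike-in centring and ranged from -0.16 to 0.26 when 1 array was left out, below 0 without control replicate 4 or 5 or neutron replicate 2 or 3. Sptb for neutrons against x-rays at 1 Gy at day 7 was 1.40 with normexp, 0.31 with quantile normalization and ranged from -0.31 to 0.12 when 1 array was left out, above 0 without neutron replicate 4 or x-ray replicate 1 or 4. For neutrons against 4 Gy of x-rays at day 7, spike-in centring gave Ank1 -1.29, Kel -1.12, Rhag -1.40 and Rhd -1.41, normexp gave Ank1 -0.30, Kel -0.26 and Rhd -0.56, and quantile normalization gave Rhd -0.012. In the controls spike-in centring gave, for day 3 against day 1, Ank1 1.40, Icam4 1.57, Kel 1.64, Rhag 1.67, Rhd 1.59 and Slc4a1 1.52, and for day 7 against day 3 Rhag -1.15. That centring shifted the median over all genes by 2.03 and -1.77 in these 2 comparisons.

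Over all genes, 4002 were called after 1 Gy of neutrons at day 7, against 10311 with spike-in centring, 10590 without the detection filter and 1530 with normexp. With normexp the count went from 1818 to 303, from 796 to 4 and from 3647 to 1309 at day 1 (1 Gy of neutrons, x-rays at 1 Gy and at 4 Gy), from 153 to 0 and from 212 to 17 at day 3, and from 416 to 76 and from 1834 to 347 at day 7 (x-rays at 1 Gy and at 4 Gy). Spike-in centring took the controls from 0 to 15268 (day 3 against day 1) and from 230 to 12612 (day 7 against day 3). The 1.5-fold requirement was applied anew under each alternative, so these counts are over differing sets of tested genes. Signal over background limits Sptb most, with 56 of 72 spots well above it, and then Ank1 and Rhag after 4 Gy of x-rays at day 1.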
